A study of Homo sapiens with 9 samples.

Results

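The PGC-1 coactivators and the nuclear genes that build mitochondria were followed across 9 RNA-seq libraries of 501mel, an established human melanoma cell line, harvested 24 h after lipofection. Cells received 1 of 2 Dicer-substrate RNAs against the T-box transcription factor TBX3, named DsiRNA 13.6 and DsiRNA 13.8, or the control DsiRNA NC1. There were 3 biological replicates in each of the 3 groups. All groups share the parental line and the transfection, and the labels name no transgene, drug or untransfected group. The 9 genes described here are PPARGC1A, PPARGC1B, PPRC1, PERM1, NRF1, GABPA, TFAM, TFB1M and TFB2M, which are 9 of the 25382 distinct entries of the count table. They were picked by symbol, 8 of them as members of the family or its pathway, and PERM1 because it was lower with both DsiRNAs. The values of PERM1 are therefore given as a description, with no test.

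The PGC-1 coactivators bind transcription factors rather than DNA and raise the output of genes for respiration. They act through the nuclear respiratory factors NRF-1 and GABP and through nuclear receptors of the ERR and PPAR families. These factors in turn switch on TFAM, TFB1M and TFB2M, which enter mitochondria to package, transcribe and translate the mitochondrial genome. In melanoma, PPARGC1A is known as a target of MITF, the master transcription factor of melanocytes, and marks tumours that lean on oxidative phosphorylation.

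Short stretches of the promoters are shown because they carry the letters read by the factors named above, so that a reader can set each gene's sequence beside its values. RefSeq promoters (GRCh38.p14, 250 bases before to 50 after the start) were at hand for 8 of the 9 genes, in 10 windows. The letters CACGTG, an E-box, are held by 7.26% of all 35116 promoters and by 1 of the 10 windows, the upstream start of PPARGC1A. The letters CATGTG (opposite strand CACATG), the core of the M-box that MITF binds, are held by 11.1% of all promoters and by 2 of the 10 windows, those of the downstream PPARGC1A start and of 1 PERM1 start. In each line the capitals mark the matched letters.
PPARGC1A, upstream start, chr4:24473011-24473040, minus strand: agtcagcgcgccCACGTGacggccccggct
PPARGC1A, downstream start, chr4:23881213-23881242, minus strand: gtgaatctgatcCATGTGtaaggaaaacag
PERM1, chr1:982168-982197, minus strand: tggcacgagtctCATGTGgccacagggacg
The counts do not tell which PPARGC1A start was used, and a match describes letters and not a bound site.

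The letters GCNTGCGC (opposite strand GCGCANGC), an NRF-1-like word, are held by 12% of all promoters and by 3 of the 10 windows. Those are the windows of TFAM, TFB1M and TFB2M, genes that NRF-1 is known to control. The promoter words were chosen after the sequences were read, so the matches are given as a description. In TFB1M and TFB2M the word matched both strands at overlapping positions, and 1 match is shown. The letters CCGGAA (opposite strand TTCCGG), the core read by ETS factors such as GABP, are held by 17.2% of all promoters and by 2 of the 10 windows, those of GABPA itself and TFB1M. The ERR half-site AAGGTCA (opposite strand TGACCTT) is held by 3.92% of all promoters and by 0 of the 10 windows.
TFAM, NRF-1-like word, chr10:58385338-58385367, plus strand: cgctctcccgcGCCTGCGCcaattccgccc
TFB1M, NRF-1-like word, chr6:155314596-155314625, minus strand: caggacttagcGCATGCGCtctcagcacgc
TFB2M, NRF-1-like word, chr1:246566258-246566287, minus strand: ctccgctgttcGCATGCGCaggctctagtg
GABPA, ETS core, chr21:25734895-25734924, plus strand: cctccgctctacTTCCGGccctggctccgc
TFB1M, ETS core, chr6:155314551-155314580, minus strand: cgcggtcatcgcTTCCGGtgggataggtct

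Libraries held 38105026 to 52272147 counted reads, and all 9 genes passed the filter on low counts, as did 14731 genes in all. TBX3 averaged 42.3 ± 3.66 CPM with 13.6, 35.4 ± 1.41 CPM with 13.8 and 85.5 ± 2.73 CPM in controls (SD, n = 3 each), so the targeted mRNA was lower in each knockdown library than in any control. Within groups, a chi-square of the counts per degree of freedom was 7.16 to 11.3 between 13.6 libraries. It was 24.2 and 24.0 between 13.8 replicate 1 and the other 13.8 libraries, which had 4.77 between them, and 40.3 and 32.4 between control replicate 3 and the other controls, which had 13.5 between them. These 2 libraries stood apart from their groups, and leaving out either changed no call of the 8 genes tested here. CPM is the read count of a gene relative to its library total, scaled by TMM. The 7 melanocyte markers summed to 13807 to 14961 CPM with 13.6, 17287 to 18100 CPM with 13.8 and 13330 to 15339 CPM in controls. Of 8 skeletal muscle markers, looked at because PERM1 and PPARGC1A are best known in muscle, 7 stayed under 1 CPM in every library, and the exception was the troponin TNNT1. Brown fat markers stayed under 1 CPM in every library for 3 of 4, leukocyte markers for 4 of 4 and keratinocyte markers for 3 of 3, with KRT5 at 0 reads. The 5 fibroblast markers summed to 3.93 to 5.07 CPM with 13.6, 14.8 to 17.9 CPM with 13.8 and 4.42 to 5.98 CPM in controls. Both the melanocyte and the fibroblast sum were highest with 13.8, and their part in the results with 13.8 was not tested. The melanocyte list did not move one way: with 13.8 TYRP1 (1.12 on the log2 scale), TYR (0.84) and DCT (0.64) rose, MITF (−0.97), SOX10 (−0.35) and MLANA (−0.27) fell, and PMEL stood at −0.20 (edgeR adjusted p = 0.0597). PMEL had the largest part in the sum with 13.6 (8544 CPM) and in controls (8065 CPM), and averaged 7042 CPM with 13.8. TYRP1 had the largest part with 13.8 only, with 2694 CPM with 13.6, 7829 CPM with 13.8 and 3603 CPM in controls. "Rose" and "fell" mark calls of the edgeR quasi-likelihood test, with p-values adjusted over all 14731 genes by Benjamini-Hochberg and a threshold of 0.05, and log2 fold changes are given ± SE. Both comparisons against control use the same 3 control libraries. In bulk RNA, fewer cells that carry a transcript and less of it per cell cannot be told apart.

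PPARGC1A, which encodes PGC-1α, was the coactivator that fell with both DsiRNAs. It had 56.6, 51.8 and 53.4 CPM with 13.6, 46.4, 42.5 and 41.4 CPM with 13.8, and 84.0, 99.8 and 82.2 CPM in controls. Every knockdown library lay below every control, and every 13.8 library below every 13.6 library. The level fell by 39.2% with 13.6 (log2 fold change −0.72 ± 0.08, edgeR adjusted p = 8.47e-06) and fell by 51.0% with 13.8 (−1.03 ± 0.08, edgeR adjusted p = 2.19e-07). The direct comparison put 13.6 above 13.8 by 0.31 ± 0.08 (edgeR adjusted p = 0.00463).

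MITF, the factor upstream of PPARGC1A in melanoma, was called with 13.8 and not with 13.6. It had 766, 729 and 807 CPM with 13.6, 466, 363 and 379 CPM with 13.8, and 721, 925 and 729 CPM in controls. The 13.6 libraries lay within the control range, whereas the 13.8 libraries lay below it. MITF stood at −0.04 ± 0.11 with 13.6 (edgeR adjusted p = 0.759) and fell by 0.97 ± 0.11 on the log2 scale with 13.8 (edgeR adjusted p = 7.09e-06), and 13.6 was higher than 13.8 by 0.93 ± 0.11 (edgeR adjusted p = 9.26e-06). PPARGC1A was lower both where MITF mRNA fell and where no change of MITF mRNA passed the test.

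PPARGC1B, which encodes PGC-1β, the closest relative of PGC-1α, had few reads and no call. It had 9.38, 9.42 and 8.42 CPM with 13.6, 10.9, 7.36 and 8.11 CPM with 13.8, and 9.15, 8.06 and 5.89 CPM in controls. The groups overlapped. The 95% interval of the log2 fold change ran from −0.131 to 0.599 with 13.6 (edgeR adjusted p = 0.27) and from −0.175 to 0.552 with 13.8 (edgeR adjusted p = 0.362), so a change as large as that of PPARGC1A lay outside both intervals.

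PPRC1, which encodes PRC, the serum-responsive member of the family, rose with 13.6 alone among the comparisons with control. It had 73.1, 67.3 and 67.5 CPM with 13.6, 58.5, 51.2 and 56.6 CPM with 13.8, and 63.5, 57.8 and 51.1 CPM in controls. The 13.6 libraries were above all others. The rise was 0.27 ± 0.08 (edgeR adjusted p = 0.0156), the value with 13.8 was −0.05 ± 0.08 (edgeR adjusted p = 0.614), and 13.6 was higher than 13.8 by 0.32 ± 0.08 (edgeR adjusted p = 0.00424). Without 13.6 replicate 1 the rise was 0.23 and did not pass the test (edgeR adjusted p = 0.066). Under the other alternatives its adjusted p stayed under 0.05.

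PERM1, a regulator named for its induction by PGC-1 and ERR in muscle, had the largest difference from control among the 9 genes with each DsiRNA, as it was picked for this. It had 12.5, 7.85 and 14.7 CPM with 13.6, 15.8, 11.6 and 9.88 CPM with 13.8, and 39.6, 38.5 and 37.0 CPM in controls. The control libraries were close together, while the knockdown libraries varied among themselves and lay far below. The log2 fold change was −1.72 ± 0.205 with 13.6 and −1.63 ± 0.203 with 13.8, and 13.6 differed from 13.8 by −0.09 ± 0.208. Without 13.6 replicate 2, the lowest library, the difference from control was −1.49, and that between the reagents was 0.14. Without 13.8 replicate 1 they were −1.84 for 13.8 against control and 0.12. Without 13.6 replicate 3, PERM1 stood at −1.92 with 13.6 against control. Over all omissions of 1 library, its difference between the reagents ran from −0.29 to 0.14. PERM1 overlaps PLEKHN1 on the opposite strand by 662 bases in GENCODE 29, and PLEKHN1 had 1 to 12 reads per library, while PERM1 had 364 to 1830.

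**Figure D1:**
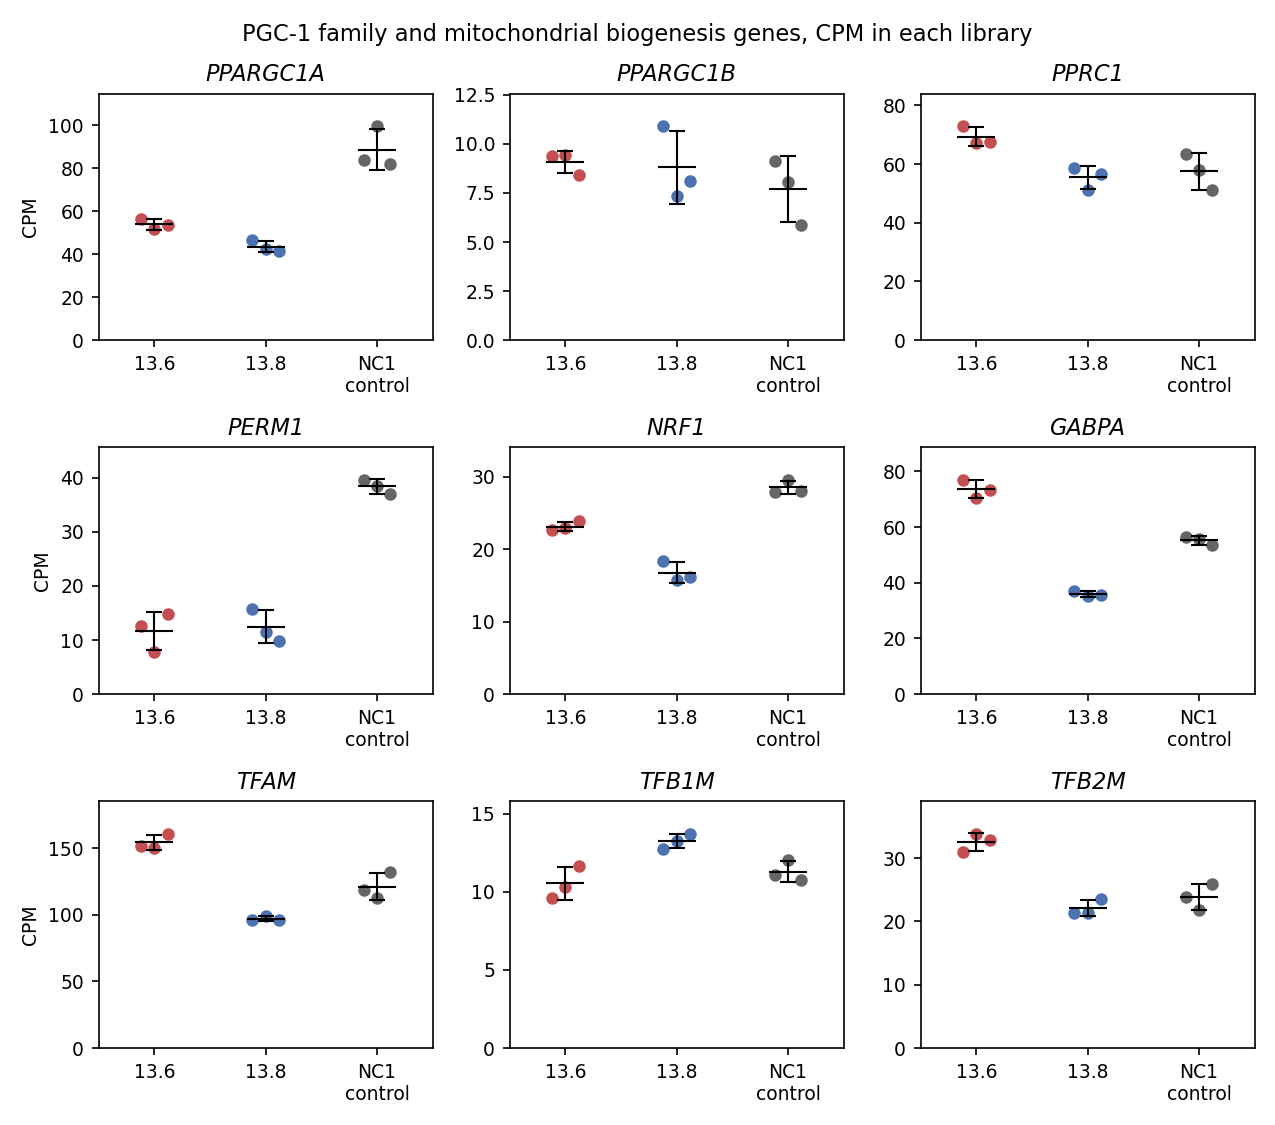
CPM of each of the 9 genes (vertical axes, from 0) in every library of cells given DsiRNA 13.6, DsiRNA 13.8 or NC1 control, with points for libraries and bars for mean ± SD (n = 3). PPARGC1A, PERM1 and NRF1 are lower in both knockdown groups than in controls, whereas GABPA and TFAM lie above the controls with 13.6 and below them with 13.8.

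NRF1, the nuclear respiratory factor 1 that PGC-1 coactivators bind, fell with both DsiRNAs. It had 22.7, 22.9 and 23.8 CPM with 13.6, 18.4, 15.8 and 16.1 CPM with 13.8, and 28.0, 29.6 and 28.0 CPM in controls. The 3 groups did not overlap, with 13.8 lowest. NRF1 fell by 18.9% with 13.6 (−0.30 ± 0.08, edgeR adjusted p = 0.00488) and fell by 41.2% with 13.8 (−0.77 ± 0.08, edgeR adjusted p = 2.1e-06), and 13.6 was higher than 13.8 by 0.46 ± 0.08 (edgeR adjusted p = 0.000162).

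GABPA, the DNA-binding subunit of the ETS-family factor GABP (also called NRF-2), went opposite ways with the 2 reagents. It had 77.0, 70.5 and 73.4 CPM with 13.6, 37.2, 35.3 and 35.4 CPM with 13.8, and 56.5, 55.6 and 53.5 CPM in controls. All 13.6 libraries were above, and all 13.8 libraries below, the controls. GABPA rose by 0.42 ± 0.06 with 13.6 (edgeR adjusted p = 8.04e-05) and fell by 0.62 ± 0.06 with 13.8 (edgeR adjusted p = 1.86e-06), and its level was 2.05-fold higher with 13.6 than with 13.8 (edgeR adjusted p = 1.41e-08). GABPA and the ATP synthase gene ATP5J run in opposite directions and share 1104 bases in GENCODE 29, and the strand setting of the counting is not given in the sources used here. ATP5J had 73.8 to 90.1 CPM with 13.6, 37.4 to 46.7 CPM with 13.8 and 65.5 to 98.3 CPM in controls, so it too was lowest with 13.8, while its 13.6 libraries lay within the control range. The part of shared reads in the GABPA values was not tested.

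TFAM, which coats and bends mitochondrial DNA and is needed to start its transcription, went the same 2 ways as GABPA. It had 152, 150 and 161 CPM with 13.6, 96.4, 99.3 and 95.9 CPM with 13.8, and 119, 112 and 132 CPM in controls. The groups did not overlap. TFAM rose by 27.5% with 13.6 (0.35 ± 0.07, edgeR adjusted p = 0.00062), fell by 19.8% with 13.8 (−0.32 ± 0.07, edgeR adjusted p = 0.00111), and was 1.59-fold higher with 13.6 than with 13.8 (edgeR adjusted p = 1.51e-06).

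TFB2M, the factor that opens mitochondrial promoters together with TFAM and the polymerase, rose with 13.6 only. It had 31.0, 33.9 and 32.9 CPM with 13.6, 21.4, 21.4 and 23.5 CPM with 13.8, and 23.8, 21.8 and 25.9 CPM in controls. The 13.6 libraries were above all others, and those of 13.8 overlapped the controls. The rise was 36.8% (0.45 ± 0.08, edgeR adjusted p = 0.000395), against −0.11 ± 0.08 with 13.8 (edgeR adjusted p = 0.264), and 13.6 was higher than 13.8 by 0.56 ± 0.08 (edgeR adjusted p = 4.21e-05). The start of CNST lies on the opposite strand next to that of TFB2M. CNST had 30.5 to 35.6 CPM with 13.6, 24.5 to 25.6 CPM with 13.8 and 33.2 to 36.2 CPM in controls, a different order from that of TFB2M.

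TFB1M, a relative of TFB2M that methylates the RNA of the small mitochondrial ribosomal subunit, ran the other way. It had 9.62, 10.3 and 11.7 CPM with 13.6, 12.8, 13.3 and 13.7 CPM with 13.8, and 11.1, 12.03 and 10.8 CPM in controls. The 13.8 libraries were above all others, and those of 13.6 overlapped the controls. TFB1M was lower with 13.6 than with 13.8 (−0.33 ± 0.09, edgeR adjusted p = 0.00824). Against controls it stood at −0.10 ± 0.10 with 13.6 (edgeR adjusted p = 0.419) and at 0.23 ± 0.09 with 13.8 (edgeR adjusted p = 0.0509). The value with 13.8 sits at the threshold, with adjusted p-values of 0.0263 to 0.147 over all alternatives, among them 0.0498 by DESeq2 and 0.0442 by limma-voom. By edgeR it passed with library totals in place of TMM (adjusted p = 0.0443), with a filter at a mean of 50 reads (adjusted p = 0.0263) and in a fit of the 2 groups alone (adjusted p = 0.0429). It also passed without control replicate 2 (0.28, edgeR adjusted p = 0.0433) or 13.6 replicate 3 (0.23, edgeR adjusted p = 0.0465). CLDN20 and TIAM2 overlap TFB1M on the opposite strand. TIAM2 had 3.85 to 4.56 CPM with 13.6, 4.65 to 5.14 CPM with 13.8 and 2.32 to 3.20 CPM in controls, and CLDN20 had 2.00 to 3.32, 0.607 to 0.857 and 1.52 to 2.60 CPM. TIAM2 too was highest with 13.8, while CLDN20 was lowest there, and the part of shared reads was not tested.

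Of the 8 genes other than PERM1, 4 rose and 2 fell with 13.6, where 49.9% of all genes tested were called, 24.9% higher and 25.0% lower. With 13.8, 0 rose and 4 fell, against 55.5% of all genes called, 27.5% higher and 27.9% lower. By limma-voom and by DESeq2 1 gene, TFB1M, rose with 13.8, and at an unadjusted p under 0.05 edgeR gives 1 as well, again TFB1M. Between 13.6 and 13.8, 7 of the 8 differed, 6 higher and 1 lower with 13.6, against 61.1% of all genes, 30.9% higher and 30.2% lower. Libraries of the 2 groups did not overlap for 6 of the 8 with 13.6, 5 with 13.8 and 7 between the reagents, where 56.0%, 59.1% and 68.8% of all genes did not. The median log2 fold change of the 8 was 0.251 with 13.6 and −0.214 with 13.8, against −0.0090 and 0.013 over all genes.

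**Figure D2:**
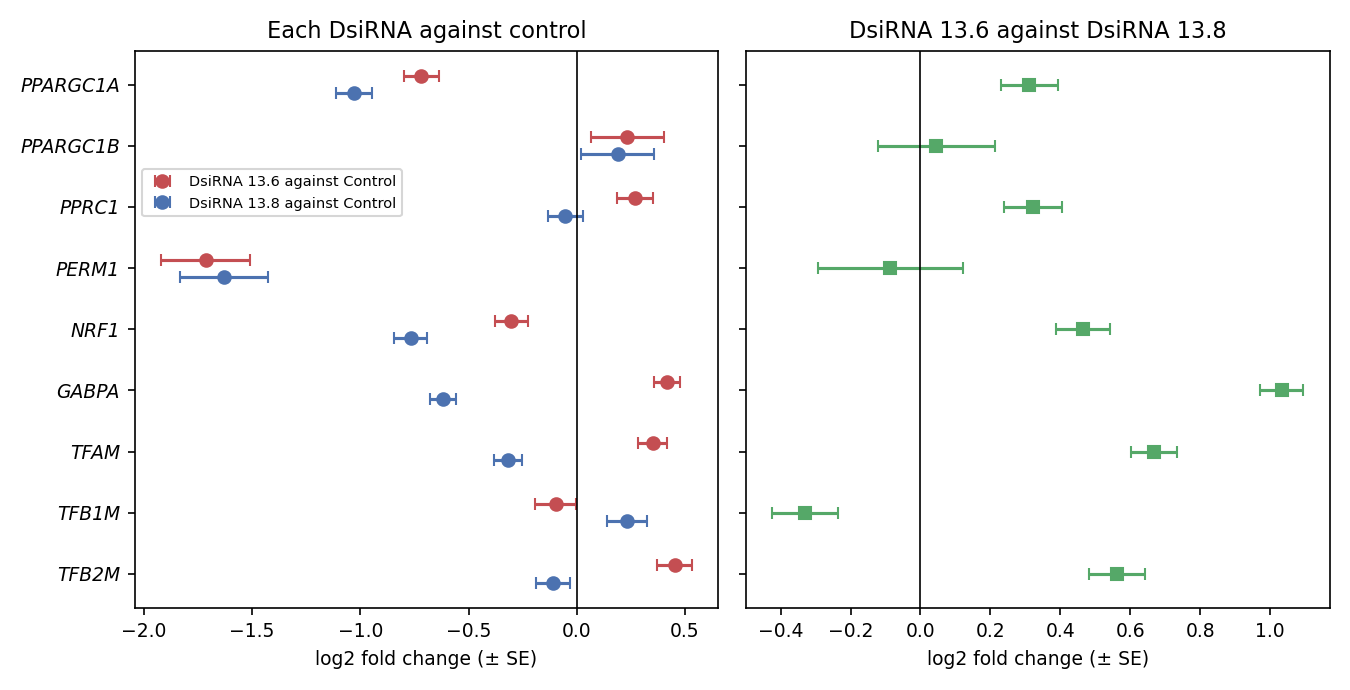
Log2 fold change ± SE of each gene (rows) for DsiRNA 13.6 and DsiRNA 13.8 against control (left) and for 13.6 against 13.8 (right). PPARGC1A, PERM1 and NRF1 lie left of 0 for both DsiRNAs, GABPA and TFAM lie on opposite sides of 0, and GABPA has the largest difference between the reagents (1.03).

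Levels of different genes were set side by side per kb of merged exons of GENCODE 29. TFAM ranked first in each group, with 27.5 ± 1.01, 17.3 ± 0.326 and 21.6 ± 1.80 CPM per kb in 13.6, 13.8 and control libraries (SD, n = 3 each). TFB2M came next in each group, and PPARGC1B was lowest, with 0.704 ± 0.0438, 0.683 ± 0.146 and 0.598 ± 0.129 CPM per kb. PERM1 held rank 8 of 9 with 13.6 and with 13.8 and rank 3 in controls, where its 10.8 to 11.6 CPM per kb did not overlap the 9.86 to 10.4 CPM per kb of GABPA below it. PPARGC1A was at 4.96 ± 0.225, 3.996 ± 0.242 and 8.16 ± 0.891 CPM per kb. With 13.6, TFB1M and PERM1 were the only neighbours in the order that overlapped. With 13.8, NRF1 overlapped PPARGC1A and PPARGC1A overlapped PERM1, and other neighbours did not overlap. In controls PPRC1 overlapped both GABPA above it and PPARGC1A below it, and the other neighbours did not overlap. Merged exons add up those of all isoforms, so a gene with many alternative ends such as PPARGC1A comes out lower than by 1 transcript.

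**Figure D3:**
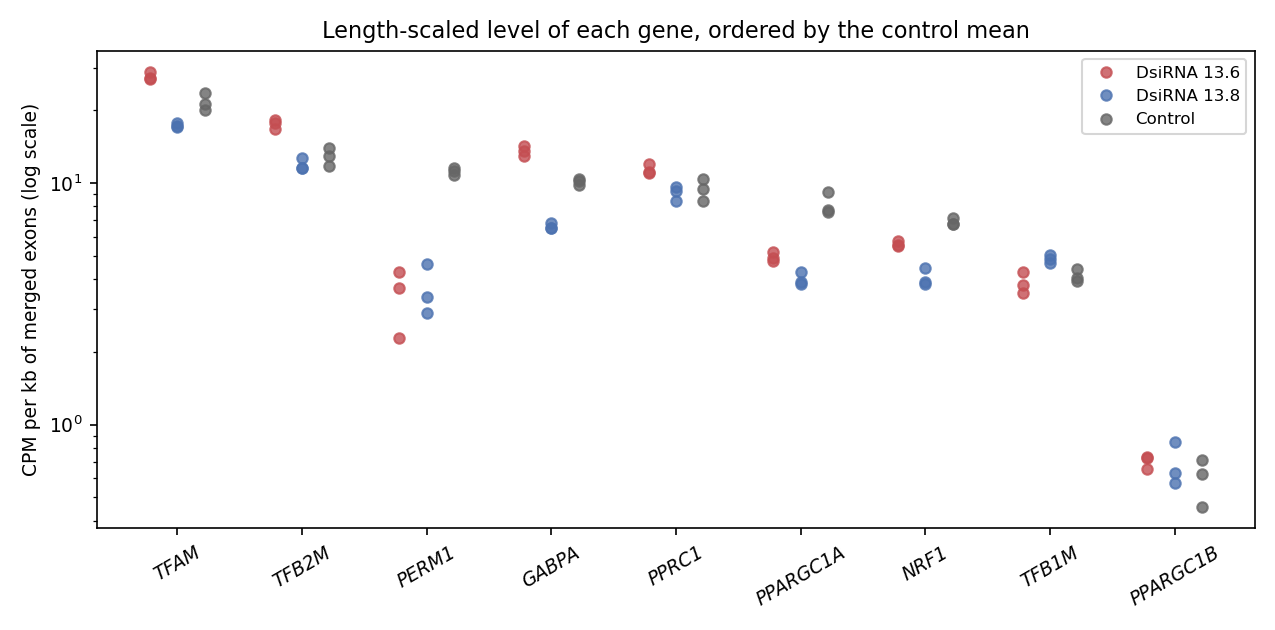
Level of each gene in CPM per kb of merged exons (log axis), with genes ordered by the control mean and 1 point for each library of DsiRNA 13.6, DsiRNA 13.8 and control. TFAM is highest and PPARGC1B lowest in each group, and PERM1 averages 3.42 with 13.6, 3.62 with 13.8 and 11.2 in controls.

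The genes whose profile was most like that of PPARGC1A were C11orf82, IPO13 and MKRN1. Likeness was the root mean square difference of centred log2 CPM over the 9 libraries, among 10693 genes averaging 5 CPM or more, and the smallest differences were 0.0474, 0.0709 and 0.0727. IPO13, a nuclear import receptor, averaged 66.8, 53.4 and 111 CPM with 13.6, 13.8 and in controls, and MKRN1, a ubiquitin ligase, 54.6, 43.6 and 90.6 CPM. For PERM1, among 12543 genes averaging 1 CPM or more, the nearest was OCA2, a chloride channel of the melanosome membrane, at a difference of 0.212. OCA2 had 23.4, 20.9 and 26.5 CPM with 13.6, 29.7, 21.3 and 23.6 CPM with 13.8, and 68.1, 72.8 and 61.0 CPM in controls. LOC100127888 (0.289) and ARHGEF39 (0.296) came next. These genes were chosen for their likeness, so their differences from control are given as a description.

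Genes that set the level or activity of PGC-1 were called in 12 of 23 with 13.6, 5 higher and 7 lower (median −0.051), and in 19 of 23 with 13.8, 8 higher and 11 lower (median −0.117). Those are 52.2% and 82.6% of the list, against 49.9% and 55.5% of all genes. PPP3CA, the catalytic subunit of calcineurin, rose with both (0.95 and 0.70 on the log2 scale with 13.6 and 13.8), and so did PRKAA1, a catalytic subunit of the energy sensor AMPK (0.41 and 0.27), and the muscle-type factor MEF2C (0.33 and 0.57). The last of the 5 that rose with 13.6, beside TFEB, was CREB1, the factor through which cAMP acts on PPARGC1A (0.30 with 13.6, and −0.11 with 13.8 at an edgeR adjusted p of 0.172). PRKACB, a catalytic subunit of protein kinase A, fell with both (−0.41 and −1.47). ATF2, a CREB-family factor that drives PPARGC1A in other tissues, fell by 1.01 with 13.8 and stood at −0.11 with 13.6 (edgeR adjusted p = 0.192). Opposite calls were those of TFEB, the lysosomal relative of MITF (0.33 with 13.6 and −0.46 with 13.8), and of the CREB coactivator CRTC1 (−0.65 and 0.57). KAT2A, the acetyltransferase that represses PGC-1α (−0.50 and 0.38), and the kinase MAPK14 (−0.37 and 0.55) also differed in sign. The TFEB rise was lost without 13.6 replicate 3 (0.25), control replicate 1 (0.235) or control replicate 3 (0.30), and the MEF2C rise with 13.6 without 13.6 replicate 1 (0.25).

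Partners and cofactors of PGC-1 and of the respiratory factors were called in 10 of 21 tested with 13.6, 5 in each direction (median −0.086), and in 12 of 21 with 13.8, 5 higher and 7 lower (median −0.072). Those are 47.6% and 57.1% of the list, against 49.9% and 55.5% of all genes. THRA, a thyroid hormone receptor, rose with both (0.75 with 13.6 and 0.68 with 13.8), as did RXRB, a shared partner of such receptors (0.29 and 0.57), ESRRA, the main ERR partner of PGC-1α (0.34 and 0.58), and the coactivator NCOA1 (0.58 and 0.80). ESRRG, a relative of ESRRA, had 1.07 to 1.55 CPM with 13.6, 3.56 to 6.18 CPM with 13.8 and 1.47 to 2.21 CPM in controls; it rose with 13.8 (1.253) and stood at −0.62 with 13.6 (edgeR adjusted p = 0.0643). YY1, which recruits PGC-1α to mitochondrial genes in muscle, fell by 0.82 with 13.6 and by 0.17 with 13.8. The sterol receptor NR1H3 fell with 13.6 (−1.10) and stood at −0.23 with 13.8 (edgeR adjusted p = 0.101). PPARD, a fatty acid receptor, fell with both (−0.21 and −0.96). HCFC1, a chromatin adaptor for GABP and the PGC-1 family, rose with 13.6 and fell with 13.8 (0.48 and −0.44), as GABPA did. GABPB1, an activating partner of GABPA, fell with both (−0.19 and −0.17), and its relative GABPB2 fell with 13.6 (−0.45) and stood at −0.28 with 13.8 (edgeR adjusted p = 0.0997). Several of these calls lie near the threshold. The GABPB1 fall with 13.6 was lost without 13.6 replicate 1 (−0.19) or 2 (−0.18), control replicate 3 (−0.16) or the filter on low counts (−0.19). Its fall with 13.8 was lost without 13.8 replicate 1 (−0.17) or 2 (−0.14), control replicate 2 (−0.18) or 3 (−0.14), without the filter (−0.18), with a filter at a mean of 50 reads (−0.14) or in a fit of the 2 groups alone (−0.16). GABPB2 lost its call without 13.6 replicate 2 (−0.38) or 3 (−0.37) or control replicate 1 (−0.36). The YY1 fall with 13.8 was lost without 13.8 replicate 2 (−0.155) or control replicate 1 (−0.14) and in a fit of the 2 groups alone (−0.16), and the PPARD fall with 13.6 without 13.6 replicate 1 (−0.18). NR1H3 passed with 13.8 without control replicate 1 (−0.335). ESRRG passed with 13.6 by DESeq2 (−0.63), without 13.6 replicate 2 (−0.80), 13.8 replicate 1 (−0.62) or control replicate 1 (−0.79).

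The nuclear genes that copy, transcribe and process mitochondrial DNA and RNA were called in 9 of 25 with 13.6, 5 higher and 4 lower (median 0.119), and in 14 of 25 with 13.8, 6 higher and 8 lower (median 0.0021). Those are 36% and 56% of the list, against 49.9% and 55.5% of all genes. POLRMT, the mitochondrial RNA polymerase, rose with both (0.34 with 13.6 and 0.31 with 13.8), and so did PNPT1, an RNA-degrading enzyme (0.63 and 0.20), and MTERF, a transcription terminator (0.61 and 0.31). MGME1, a nuclease of mitochondrial DNA replication, fell with both (−0.38 and −0.73). LRPPRC, which stabilises mitochondrial mRNA, fell with 13.6 (−0.49) and stood at 0.09 with 13.8 (edgeR adjusted p = 0.303), while LIG3, the mitochondrial DNA ligase, fell with 13.8 (−0.35) and stood at 0.09 with 13.6 (edgeR adjusted p = 0.304). C10orf2, which encodes the helicase Twinkle, rose with 13.6 (0.39) and fell with 13.8 (−0.22). The last of the 5 that rose with 13.6 was the nuclease DNA2 (0.45, and −0.13 with 13.8 at an edgeR adjusted p of 0.132). The others that fell with 13.6 were TEFM, the elongation factor of mitochondrial transcription (−0.28, and −0.16 with 13.8 at an edgeR adjusted p of 0.159), and KIAA0391, an RNase P subunit, which fell with both (−0.33 and −0.29). The count with 13.8 dropped to 8 without 13.8 replicate 2 and to 9 without 13.8 replicate 3. The MTERF call with 13.8 was lost without 13.8 replicate 2 (0.26), and the C10orf2 fall without 13.8 replicate 2 (−0.19), 13.8 replicate 3 (−0.19) or control replicate 1 (−0.15), with a filter at a mean of 50 reads (−0.19) or in a fit of the 2 groups alone (−0.21). The TEFM fall was lost without 13.6 replicate 1 (−0.205) or control replicate 3 (−0.24).

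Of the 13 mRNAs that mitochondria encode, whose transcription needs TFAM and TFB2M, 7 rose and 1 fell with each DsiRNA (median 0.246 with 13.6 and 0.261 with 13.8). The 8 called are 61.5% of the list with each, against 49.9% and 55.5% of all genes, of which 24.9% and 27.5% were higher. ATP8 (0.41 and 0.41) and ATP6 (0.39 and 0.34), neighbouring genes of the ATP synthase, rose with both, and so did ND3 of complex I (0.27 and 0.40). ND2 rose with 13.8 (0.53) and stood at 0.16 with 13.6 (edgeR adjusted p = 0.0854), and CYTB of complex III rose with 13.6 (0.35) and stood at 0.20 with 13.8 (edgeR adjusted p = 0.0558). ND5 fell with 13.6 (−0.30) and rose with 13.8 (0.26), and ND6, the 1 that fell with 13.8 (−0.34), is the only 1 of the 13 encoded on the other strand of the circle. The count with 13.6 was 4 without 13.6 replicate 2, and the count with 13.8 was 5 without 13.8 replicate 3. The ND3 rise with 13.6 was lost without 13.6 replicate 2 (0.19) or control replicate 1 (0.18). The ND5 fall was lost without 13.6 replicate 3 (−0.245) or control replicate 2 (−0.24), and its rise without 13.8 replicate 2 (0.27), 13.8 replicate 3 (0.25) or control replicate 3 (0.15). The ND6 fall was lost without 13.8 replicate 2 (−0.30), 13.8 replicate 3 (−0.29) or control replicate 2 (−0.31). Without control replicate 2, ND2 passed with 13.6 (0.23) and CYTB with 13.8 (0.29). CYTB also passed with 13.8 by DESeq2 (0.20), by limma-voom (0.21), with library totals in place of TMM (0.21) and with a filter at a mean of 50 reads (0.23).

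Of the reported targets of PGC-1α, 2 of 27 tested rose with 13.6 and 10 fell (median −0.114), and with 13.8, 8 rose and 7 fell (median 0.072). Those are 44.4% and 55.6% of the list, against 49.9% and 55.5% of all genes. The 2 that rose with 13.6 were IDH3A, a subunit of a citric acid cycle dehydrogenase (0.53, and 0.42 with 13.8), and CPT1A, which admits fatty acids to mitochondria (0.38 and 0.64), and both rose with 13.8 as well. ATP5B of the ATP synthase fell with both (−0.37 with 13.6 and −0.65 with 13.8), as did SOD2, the superoxide dismutase of the matrix (−0.68 and −0.55). ACADM, which oxidises medium-chain fatty acids, fell by 1.36 with 13.6 and stood at 0.07 with 13.8 (edgeR adjusted p = 0.349). TXNRD2, the mitochondrial thioredoxin reductase, fell by 1.13 with 13.6 and stood at 0.22 with 13.8 (edgeR adjusted p = 0.0728). The fusion protein MFN2 fell by 0.68 with 13.8 and stood at −0.11 with 13.6 (edgeR adjusted p = 0.109), and PDK4, a brake on pyruvate oxidation, rose by 0.99 with 13.8 and stood at 0.05 with 13.6 (edgeR adjusted p = 0.572). SIRT3, a mitochondrial deacetylase, fell with 13.6 (−0.25) and rose with 13.8 (0.32). Without 13.6 replicate 1 the count with 13.6 was 7. The SIRT3 fall was lost without 13.6 replicate 1 (−0.185), 13.6 replicate 3 (−0.26) or control replicate 1 (−0.195), without the filter on low counts (−0.24) and in a fit of the 2 groups alone (−0.24). MFN2 passed with 13.6 under library totals (−0.15), and TXNRD2 passed with 13.8 without 13.8 replicate 1 (0.32) or control replicate 3 (0.31) and with a filter at a mean of 50 reads (0.25).

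Genes of mitochondrial import, chaperones and dynamics were called in 8 of 18 with 13.6, 6 higher and 2 lower (median 0.186), and in 9 of 18 with 13.8, 4 higher and 5 lower (median 0.020). Those are 44.4% and 50% of the list, against 49.9% and 55.5% of all genes. OPA1, which fuses inner membranes, rose with both (0.73 with 13.6 and 0.81 with 13.8), and so did the import receptor TOMM20 (0.43 and 0.30), the channel subunit TIMM17A (0.55 and 0.55) and the fusion protein MFN1 (0.31 and 0.34). TOMM40, the outer membrane channel, fell with both (−0.27 and −0.22), TIMM44 of the import motor fell with 13.6 (−0.26) and stood at 0.06 with 13.8 (edgeR adjusted p = 0.552), and the fission protein DNM1L fell with 13.8 (−0.20) and stood at 0.037 with 13.6 (edgeR adjusted p = 0.642). TOMM70A, another import receptor, rose with 13.6 (0.57) and fell with 13.8 (−0.69). MFF, a receptor of the fission machinery, fell with 13.8 (−0.63) and stood at −0.05 with 13.6 (edgeR adjusted p = 0.53). The chaperonin HSPD1, a gene with many processed copies, rose with 13.6 (0.19) and fell with 13.8 (−0.29). The count with 13.6 was 14 without control replicate 3. The HSPD1 rise was lost without 13.6 replicate 1 (0.21), 2 (0.20) or 3 (0.17), without control replicate 1 (0.13), or with library totals in place of TMM (0.155). Without 13.6 replicate 1 the falls of TOMM40 (−0.20) and TIMM44 (−0.196) with 13.6 were lost. The TOMM40 fall with 13.8 was lost without 13.8 replicate 1 (−0.18) or 2 (−0.21), control replicate 2 (−0.24) or 3 (−0.155), with a filter at a mean of 50 reads (−0.19) or in a fit of the 2 groups alone (−0.21), and that of DNM1L without 13.8 replicate 2 (−0.17) or control replicate 2 (−0.17).

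**Figure D4:**
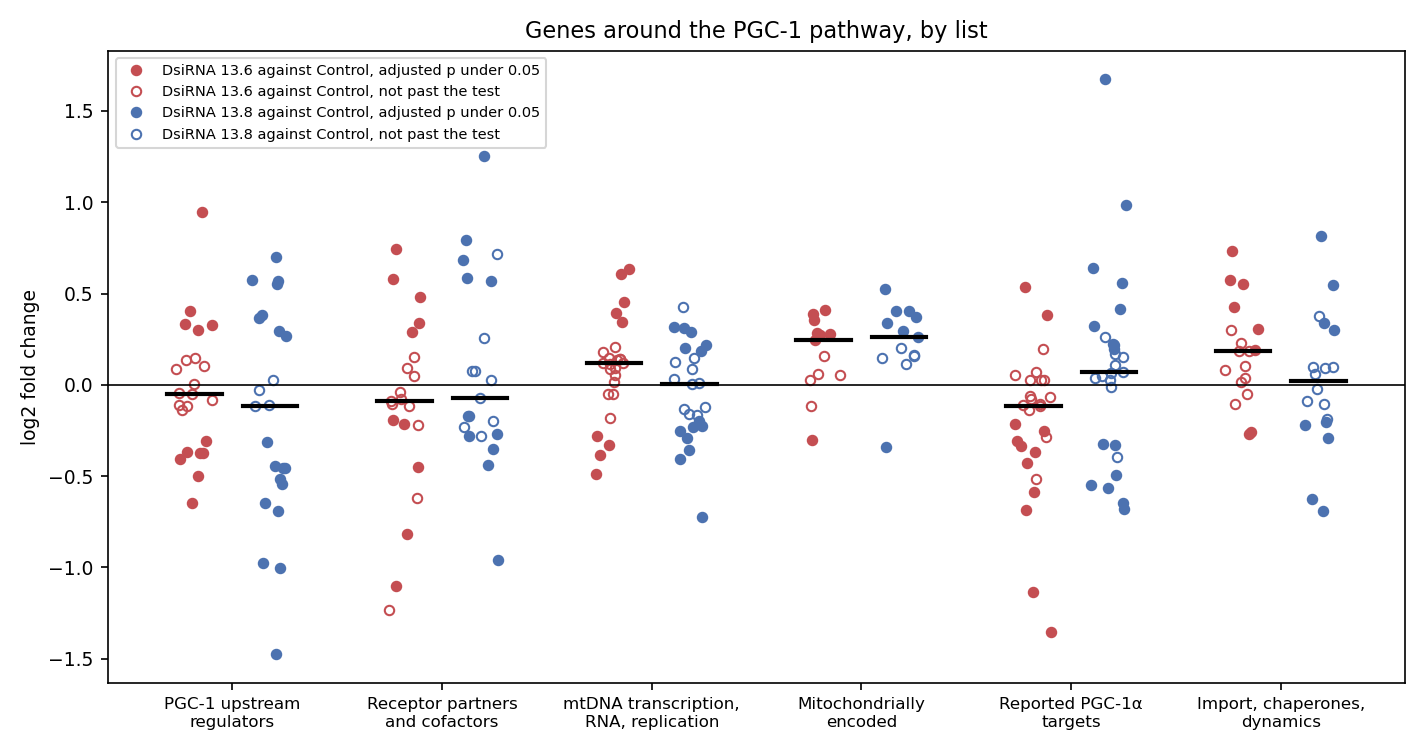
Log2 fold change of each tested gene of 6 lists around the PGC-1 pathway, for DsiRNA 13.6 and DsiRNA 13.8 against control, with filled points for an adjusted p under 0.05, open points for the rest and black bars for list medians. All 6 lists straddle 0, with medians of −0.117 to 0.261, and the 13 mitochondrially encoded genes lie mostly above 0 with both DsiRNAs.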

How the data were processed

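Total RNA of 9 libraries was measured with a strand-keeping kit. The submitters' processing notes name cutadapt and FastQC, the aligner STAR, the counter HTSeq, DESeq2 and, as build, hg19, and tool versions, gene annotation and strand setting were not given in the sources used here. Raw counts of reads per gene symbol were deposited by the authors, in 25398 rows, of which 25382 remained after exact repeats were dropped. A second deposited table, on a log2 scale, was not used.

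The count table was read into R 4.3.3 and fitted by edgeR 4.0.16 (filterByExpr with its minimum count of 10, TMM, robust quasi-likelihood fit of all 9 libraries, 6 residual degrees of freedom, two-sided tests, Benjamini-Hochberg over 14731 genes). The fits were tested on simulated data. Alternatives were DESeq2 1.42.0, limma-voom (limma 3.58.1), other scalings, filters and sample sets, a replicate block, and leaving out each library; those for the gene lists, except the 2 other scalings, and those for the named list genes were added after seeing the data. Members and lists were chosen with earlier results of these data known, and the promoter words after the sequences were read. Named genes are the 9 members, TBX3, MITF, overlapping genes, the 3 genes most like PPARGC1A or PERM1, and in each list the 3 with the smallest adjusted p per DsiRNA plus those called in opposite directions or behind a count of 5 or fewer. The labels call the replicates biological and say no more of their origin, so p-values measure the spread between these samples. Sequences are from RefSeq, lengths and overlaps from GENCODE 29, both on GRCh38, so no coordinates are given for the counts.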

Additional observations from a re-analysis of the deposited data

Results flagged for a closer look

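Genes that the DsiRNAs moved in opposite directions against control, with a called difference between the reagents by edgeR, are given here with the log2 difference of 13.6 minus 13.8. GABPA differed by 1.03 ± 0.06 (edgeR adjusted p = 1.41e-08) and TFAM by 0.67 ± 0.07 (edgeR adjusted p = 1.51e-06). Among genes of the surrounding lists, TOMM70A differed by 1.27, HCFC1 by 0.92, TFEB by 0.79, C10orf2 by 0.61 and HSPD1 by 0.48, each higher with 13.6. CRTC1 differed by −1.22, MAPK14 by −0.92, KAT2A by −0.88, SIRT3 by −0.57 and ND5 by −0.56, each lower with 13.6.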

How the results depend on the processing

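Over 8 other settings, 210 of 216 values of the 9 genes counted as the same. A value did so if it kept its side of the threshold, and its direction where either fit called it. For PERM1, which has no test, it had to keep its direction against control and move by less than the SE of the main fit. When 1 library was left out, 236 of 243 counted as the same. Values with no call in either fit could change sign and still count. Among them PPRC1 with 13.8 ran from −0.13 to 0.02, and PPARGC1B between the reagents from −0.07 to 0.23. The values not counted as the same were those of TFB1M with 13.8 and PPRC1 with 13.6, given above, and of PERM1. Without 13.6 replicate 2 PERM1 stood at −1.49 with 13.6 against control and at 0.14 between the reagents, and without 13.8 replicate 1 at −1.84 with 13.8 against control and at 0.12 between the reagents. The number of the 8 genes called was 5 to 6 with 13.6 and 4 to 5 with 13.8 over all alternatives. Leaving out 1 library gave 6304 to 7504 called genes with 13.6, 7164 to 8450 with 13.8 and 8021 to 9603 between the reagents. Among the lists it gave, with 13.6, 7 to 12 reported PGC-1α targets, 4 to 8 mitochondrially encoded genes and 6 to 14 import genes. With 13.8 it gave 8 to 14 genes of mitochondrial DNA and RNA and 5 to 11 mitochondrially encoded genes; the cause was not tested.

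The labels do not say whether replicate numbers pair the samples. Correlations of same-numbered libraries' deviations ran from −0.179 to 0.187. In the 3 comparisons, 3, 3 and 4 of 6 libraries correlated best with their own number. With 3 libraries per group, these values do not settle whether the numbers pair the samples. With the replicate block 8010, 8803 and 9581 genes were called with 13.6, with 13.8 and between the reagents, against 7357, 8169 and 8995 without it, and 6, 5 and 7 of the 8 genes. TFB1M with 13.8 passed under the block (0.23, edgeR adjusted p = 0.0436). Among list genes, ND2 with 13.6 and NR1H3, CYTB, TXNRD2 and GABPB2 with 13.8 passed under the block. PPARGC1B had 241 to 523 reads per library, and the SE of its log2 fold change was 0.169 with 13.6 and 0.168 with 13.8.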
